A study of Mus musculus with 16 samples.

Results

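Lymphocyte transcripts were followed in liver from mouse offspring as a set of 36 genes that mark T cells (16 genes), natural killer (NK) and cytotoxic cells (7), B cells (8), B cell precursors (4) and lymphocytes in general (1, Ptprcap). Members were taken by gene name or older synonym from the array files, and each gene was read from its probe with the highest mean red signal. The genes lay on 57 probes, and 34 of the 36 passed a filter that asked for a signal well above background on at least 3 of the 16 arrays, out of 18704 genes tested. Cd8a and Cd28 did not pass and had no liver signal that could be compared.

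The study exposed pregnant C57BL/6BomTac mice by inhalation to clean filtered air or to UV-Titan, a titanium dioxide of nano size with a coated surface, at about 42 mg per cubic metre. Each exposure lasted 1 hour and was repeated daily from gestation day 8 to 18. Liver RNA of 16 offspring was hybridised, 1 two-colour array for each animal, with 3 female controls, 5 female UV-Titan, 4 male controls and 4 male UV-Titan. All offspring were of the same strain and carried no transgene, and the exposure was the dams'. The study collected offspring on postnatal day 2 and on days 23 to 24, but the labels do not say which age or litter each array came from, so the tests measure the spread between these animals and can neither separate age nor litter. Whole liver was used, so fewer cells of a type and less RNA in each cell cannot be told apart. Every array carried a universal mouse reference RNA in the green channel, and a value below is the log2 ratio of liver (red) over that reference unless it is called red alone, which is the log2 liver signal after normalisation between arrays. Red over green shows how a gene stands in liver against the reference mixture for the same probe, and levels of different genes were not compared.

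Before birth and shortly after it the mouse liver is a site of blood formation, and it makes B cell precursors as well as red cells and granulocytes. Precursors assemble a surrogate light chain from Vpreb1 and Igll1 around a heavy chain rearranged by the Rag1 recombinase, and Dntt adds bases at the joins. After birth this activity moves to the bone marrow, and mature liver keeps resident NK and T cells. T cells recognise targets through a receptor built with the Cd3 complex, and NK and cytotoxic T cells kill with perforin and granzymes.

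The depth of signal was similar across the arrays. In the red channel 57.7 to 67.1% of probes were well above background and in the green channel 62.7 to 69.8%, no probe was saturated, and 90 to 135 spots were flagged as outliers on each array. Of the 36 members, 28 were well above background in liver on all 16 arrays. Hepatocyte markers were high against the reference on every array (median ratio 4.51 to 5.59), and Xist and Ddx3y matched the labelled sex on 16 of 16 arrays. The arrays lay on 5 slides, each with UV-Titan and control animals. Within a sex the slides were not balanced: slides 2 and 3 held no female control, slide 4 no male UV-Titan and slide 5 no male control. Male controls 31 and 33 carried raised exocrine pancreas markers (median deviation from the gene means 2.74 and 1.37, against -0.48 to -0.17 on the other arrays), and male UV-Titan array 5 carried raised skeletal muscle markers (3.05, against at most 0.33 elsewhere). In males the 12 tested pancreas markers were all lower in UV-Titan (median difference -1.16) and the 8 muscle markers all higher (0.88).

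The regions before the start sites of the surrogate light chain genes, of the B cell receptor gene Cd79a, of Rag1 and of Dntt are shown because these are the precursor and B cell receptor genes whose values are given array by array further on. They are the 250 bases before the start in GRCm38.p6 from RefSeq, written 5′ to 3′ on the gene's strand. Vpreb1 lies at chr16:16869256-16869505 (minus strand), Igll1 beside it at chr16:16863986-16864235 (minus), Cd79a at chr7:24897247-24897496 (plus) Rag1 at chr2:101649533-101649782 (minus) and Dntt at chr19:41029025-41029274 (plus). Capitals mark matches on either strand to the letters CAGGTG (an E-box, the kind of site that E proteins bind), GAGGAA (a PU.1-like core) or TGGGAA (an Ikaros-like core).
Vpreb1: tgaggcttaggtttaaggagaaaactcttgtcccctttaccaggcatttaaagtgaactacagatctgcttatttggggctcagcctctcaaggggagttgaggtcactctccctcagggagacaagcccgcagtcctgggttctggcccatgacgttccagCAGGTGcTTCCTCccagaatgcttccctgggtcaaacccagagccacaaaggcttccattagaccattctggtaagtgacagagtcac
Igll1: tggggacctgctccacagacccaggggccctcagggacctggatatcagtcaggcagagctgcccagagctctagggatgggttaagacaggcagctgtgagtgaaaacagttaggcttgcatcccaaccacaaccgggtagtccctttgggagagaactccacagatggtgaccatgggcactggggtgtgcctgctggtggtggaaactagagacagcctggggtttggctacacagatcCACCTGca
Cd79a: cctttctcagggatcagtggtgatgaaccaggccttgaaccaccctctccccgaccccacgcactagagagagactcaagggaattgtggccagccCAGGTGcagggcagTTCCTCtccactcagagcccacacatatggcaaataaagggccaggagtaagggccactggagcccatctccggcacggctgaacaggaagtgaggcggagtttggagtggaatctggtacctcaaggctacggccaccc
Rag1: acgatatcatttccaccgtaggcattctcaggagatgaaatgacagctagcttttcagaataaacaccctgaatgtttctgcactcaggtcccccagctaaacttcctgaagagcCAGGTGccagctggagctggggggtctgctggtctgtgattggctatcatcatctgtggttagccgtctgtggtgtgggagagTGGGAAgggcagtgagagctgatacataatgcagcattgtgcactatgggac
Dntt: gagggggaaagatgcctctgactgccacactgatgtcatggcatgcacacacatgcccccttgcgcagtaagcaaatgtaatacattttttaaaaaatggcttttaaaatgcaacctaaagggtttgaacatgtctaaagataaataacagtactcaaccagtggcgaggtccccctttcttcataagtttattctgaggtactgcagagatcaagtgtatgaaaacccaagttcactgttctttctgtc
The E-box CAGGTG occurred at -88 to -83 of Vpreb1, -8 to -3 of Igll1, -154 to -149 of Cd79a and -135 to -130 of Rag1, counted from the base next to the start as -1. GAGGAA occurred on the reverse strand, as TTCCTC, at -81 to -76 of Vpreb1 and at -140 to -135 of Cd79a. TGGGAA occurred at -52 to -47 of Rag1. The Dntt window held 0 matches to these motifs. A promoter was given for 24 of the 36 members. CAGGTG was found in 5 of the 8 B cell and precursor promoters (62.5%) and in 9 of 20 T and NK promoters (45%), several of which belong to the same gene, against 17.2% of all 32851 promoters of that length. The EBF1 motif TCCCNNGGGA was found in 1 of the 8, that of Cd22, and in 0.779% of all. GAGGAA was found in 37.5% of the 8 and 40% of the 20, against 23.3% of all. For TGGGAA the shares were 25% and 40%, against 21.6%. These matches describe letters in a window and are not measured binding.

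All 7 NK and cytotoxic genes lay above the reference on all 16 arrays, a state shared by 39% of the genes tested. For Prf1 (0.05 to 0.46) and Ncr1 (0.14 to 0.39) the liver signal was well above background on only 9 and 3 arrays. A dimmer Pax5 probe, never well above background, gave 0.03 to 0.30, so Prf1 and Ncr1 are not read as raised in liver. Below the reference on all arrays lay 10 members, as did 31% of genes. Gzma, a granule protease of NK and cytotoxic T cells, had ratios of 2.57 to 3.71, Gzmb of 2.12 to 2.95, Klrd1, the CD94 receptor chain, of 1.86 to 2.54, and Nkg7, a granule membrane protein, of 2.40 to 3.17. For Klrd1 the reference signal never rose well above background, so its ratio is a lower limit of the liver excess. Among B precursor genes, Vpreb1 had ratios of 3.05 to 3.79, Igll1 of 1.45 to 2.17 and Rag1 of 1.10 to 2.26, while Dntt lay below the reference on every array (-1.12 to -0.44). In the reference Rag1 never rose well above background, and Igll1 did so on only 2 arrays, so these 2 ratios are lower limits for the probes used. The other Igll1 probe, well above background in liver on only 3 arrays, gave -0.03 to 0.32. The other Rag1 probes gave 1.08 to 1.92 and 0.29 to 0.97. The T cell genes were divided, with 7 of the 14 tested below the reference on all arrays and 5 above. Cd3g, Lck, the kinase that starts receptor signalling, Zap70, Lat, Cd5, Cd6 and Cd8b1 lay below the reference on all 16 arrays, as did the B lineage factors Irf4 and Mzb1. For Cd8b1 this holds for its brighter probe, and its other probe, described further on, gave -0.37 to 0.03. Cd247, the zeta chain that passes on the receptor's signal, lay above at 0.10 to 0.42, and so did Cd4, Cd2, Cd27 and Il7r. For Cd247 the reference signal was never well above background and the liver signal on only 8 arrays, so it is not read as raised either. Cd4 (0.06 to 0.22) lay within the range of the dimmer Pax5 probe. Cd27 (0.14 to 0.45, median 0.25) and Cd2 (0.21 to 0.78, median 0.36) overlapped that range. Cd4 and Cd27 are therefore not read as raised. Cd3d and Cd3e, which sit with Cd3g in 1 receptor complex, lay near the reference, at -0.12 to 0.56 and -0.19 to 0.62, as did Ms4a1 (CD20) at -0.44 to 0.39. Cd6 too carried a reading that depended on the probe: its brightest probe gave -2.71 to -1.78 and its other probe -0.22 to 0.09.

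**Figure D1:**
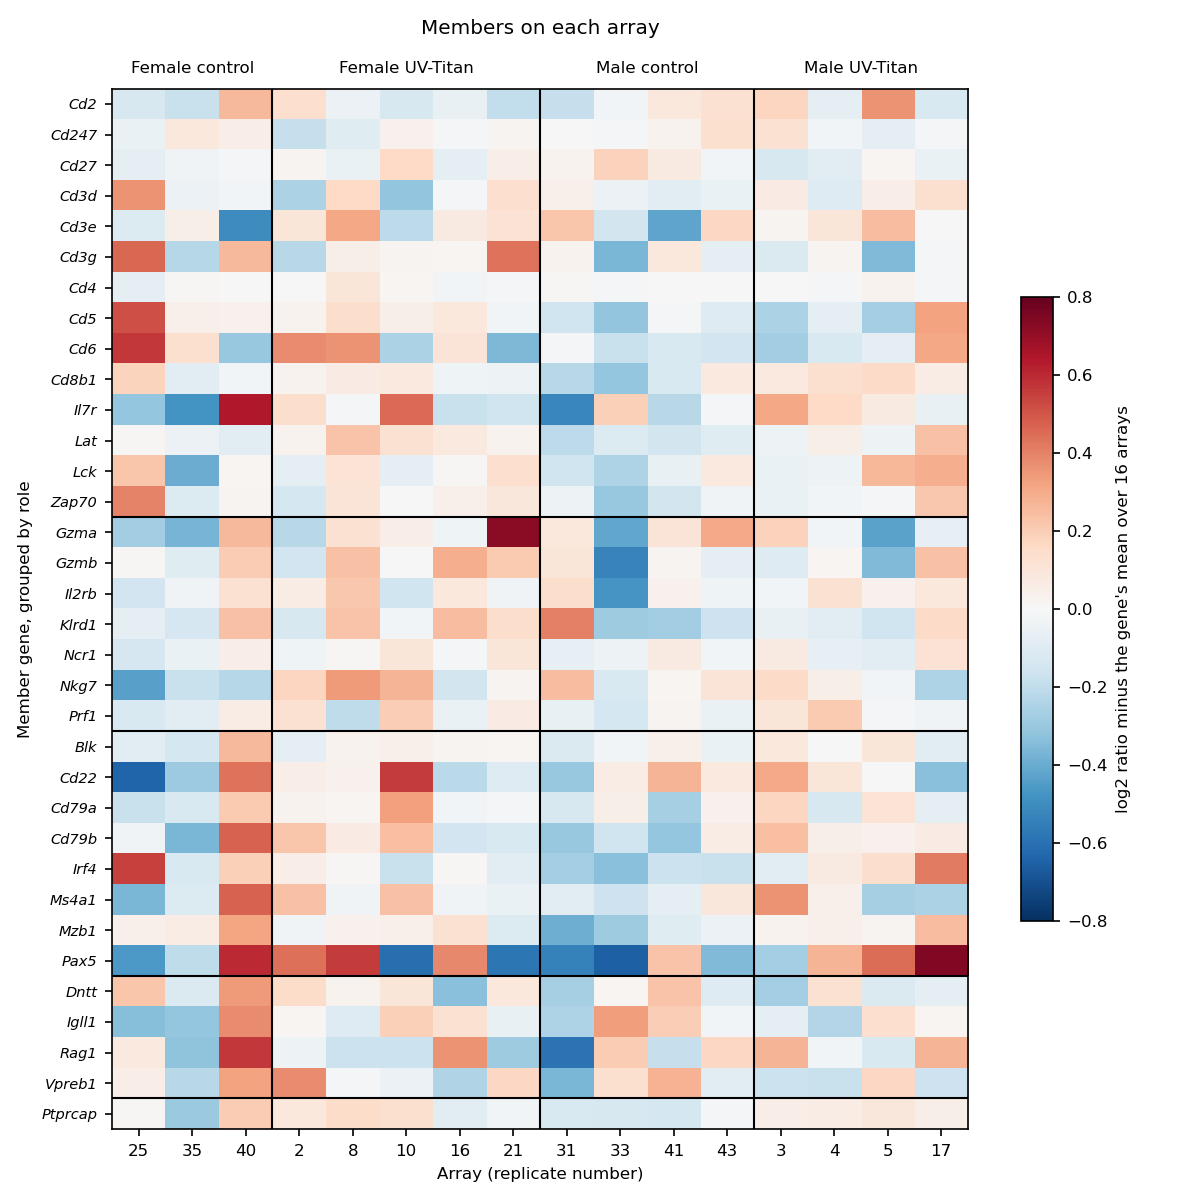
Heat map of the log2 liver over reference ratio of the 34 tested members (rows, grouped by role) on each of the 16 arrays (columns, grouped by sex and exposure), minus the gene's mean over 16 arrays; red is above and blue below that mean, and the colour scale ends at 0.8 on either side. Female control 40 stands red for most B lineage genes, male control 31 blue, and Pax5 changes between arrays within every group.

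No lymphocyte gene passed the threshold for a difference between exposed and control livers in either sex. With limma and Benjamini-Hochberg adjustment over all 18704 genes, 0 genes were called in females and 0 in males at an adjusted p below 0.05 (background 0% in each), so none of the 34 members was called. In females 20 of the 34 had a positive difference of UV-Titan minus control, against 58.7% of all genes, and in males 25 of 34, against 56.7% of all genes. The median difference was 0.06 in females and 0.08 in males, against 0.02 for all genes in both sexes. In red alone 15 members were higher in females, against 49.8% of all genes, and 21 in males, against 50.4%. The medians were -0.03 and 0.04. The female majority also turned with Agilent's processed signals, with 14 of 34 higher against 50.4% of all genes. In the deposited log2 ratios it was 13 of 34, against 46.9%. The female count was 10 of 34 with array weights, against 57.3%, and 9 of 34 without female controls 35 and 25, against 56.8%. The last of these fits left control 40 as the only female control, the highest array for the B cell and B precursor medians. The male count was 21 of 34 without UV-Titan array 17, against 55.9% of all genes, and 22 without control 33, against 56.4%. Without both arrays that carried pancreas markers, controls 31 and 33, it was 19 of 34, against 57.7% of all genes. At an unadjusted p below 0.05, 1 member was higher and 0 lower in females, against 5.49% of genes higher and 1.27% lower, and 4 were higher and 0 lower in males, against 3.14% and 1.81%. Without adjustment the share in the ratio is therefore below the background in females and above it in males. In red alone 2 members had an unadjusted p below 0.05 in females, in either direction, against 587 of 18704 genes. In males 0 did, against 608. In the ratio, 2 members in females had every UV-Titan array above every control, against 3.23% of genes, and 0 had every array below, against 1.03%. In males 4 members did, against 1.9% of genes, and 0 lay below, against 1.1%.

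The 95% confidence intervals say what size of change these arrays could miss. Among the 4 precursor genes the intervals in females ran from -0.60 (Rag1) to 0.45 (Igll1), and in males from -0.42 (Igll1) to 0.62 (Rag1). Pax5 had the widest interval of the set, from -0.61 to 0.73 in females and from -0.02 to 1.27 in males. Cd4, whose ratios spanned only 0.06 to 0.22 over the 16 arrays, had the narrowest, from -0.07 to 0.14 and from -0.10 to 0.10. Its probe is such a dim one, with a mean red signal of 122 averaged over 10 spots, and a larger change in Cd4 RNA is not excluded.

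**Figure D2:**
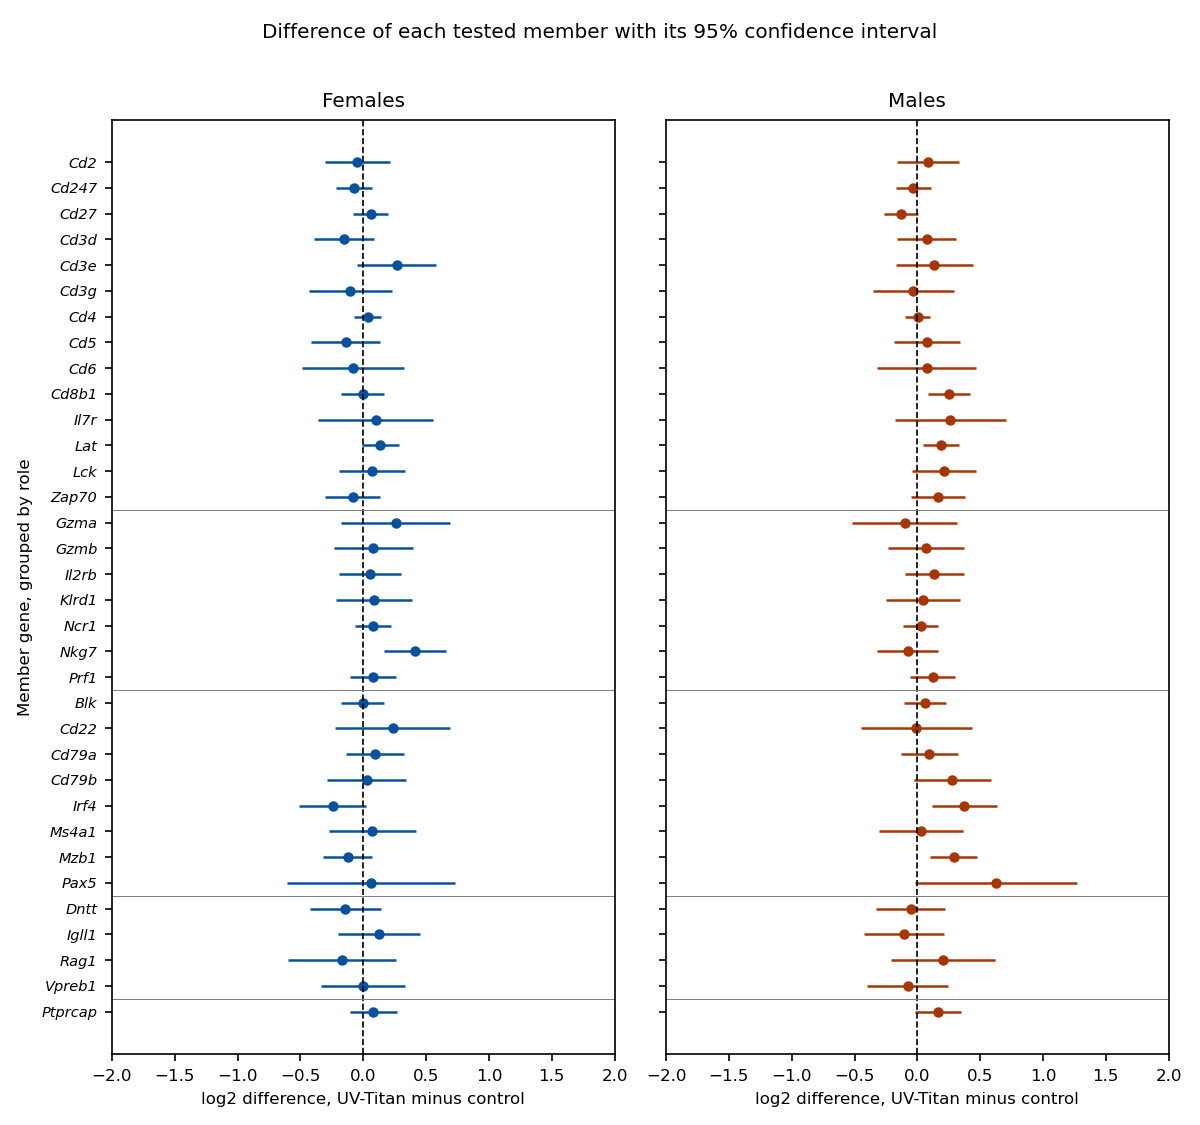
Difference of UV-Titan minus control in log2 liver over reference (horizontal axis) for the 34 tested members (vertical axis, grouped by role) in females and males; points are limma estimates and lines their 95% confidence intervals. Nkg7 in females and Mzb1, Cd8b1, Irf4 and Lat in males have intervals clear of 0 before adjustment.

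None of the 4 B precursor genes passed the test, and exposed and control arrays overlapped for each of them in both sexes. Vpreb1 was 3.47, 3.19 and 3.73 in the female controls 25, 35 and 40 and 3.79, 3.40, 3.36, 3.17 and 3.57 in the female UV-Titan arrays 2, 8, 10, 16 and 21. Among males it was 3.05, 3.54, 3.69 and 3.32 in controls 31, 33, 41 and 43 and 3.24, 3.24, 3.58 and 3.24 in UV-Titan arrays 3, 4, 5 and 17. No group stood apart, and the differences were -0.00 ± 0.16 (SE) in females and -0.08 ± 0.15 in males. Male UV-Titan 5, the array with raised muscle markers, was the highest of its group, and control 31, with raised pancreas markers, the lowest of its own. The male difference was -0.16 without array 5 and -0.18 without controls 31 and 33. Igll1, its partner in the surrogate light chain, was 1.45, 1.48 and 2.17 in female controls and 1.81, 1.68, 1.98, 1.91 and 1.73 in female UV-Titan. It was 1.54, 2.12, 1.99 and 1.77 in male controls and 1.71, 1.56, 1.93 and 1.81 in male UV-Titan. In females the UV-Titan values lay between the lowest and the highest control, and the differences were 0.13 ± 0.15 in females and -0.11 ± 0.15 in males. With Agilent's processed signals in place of the mean signals the female Igll1 difference was 1.23, and in red alone it was -0.12. The dimmer Igll1 probe gave 0.02 in females and -0.08 in males.

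Rag1 was 1.77, 1.37 and 2.26 in female controls and 1.66, 1.52, 1.52, 2.05 and 1.41 in female UV-Titan. It was 1.10, 1.90, 1.51 and 1.86 in male controls and 1.97, 1.68, 1.57 and 1.97 in male UV-Titan. The difference was -0.17 ± 0.20 in females and 0.20 ± 0.20 in males, and both pairs of groups overlapped. Its other probes gave -0.14 and -0.07 in females and 0.13 and 0.00 in males. Dntt, which stood below the reference, was -0.56, -0.90 and -0.44 in female controls and -0.64, -0.75, -0.68, -1.12 and -0.70 in female UV-Titan. Male controls had -1.05, -0.77, -0.55 and -0.89, against -1.05, -0.66, -0.90 and -0.86 in male UV-Titan. The differences were -0.14 ± 0.13 and -0.05 ± 0.13. The spread among female controls was wide for all 4 genes, because control 40 was the highest of the 3 for each and control 35 the lowest for Vpreb1, Rag1 and Dntt. As medians over the 4 genes, the deviation from the gene means was 0.36 on female control 40, -0.27 on female control 35 and -0.31 on male control 31, and between -0.13 and 0.21 on all other arrays.

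**Figure D3:**
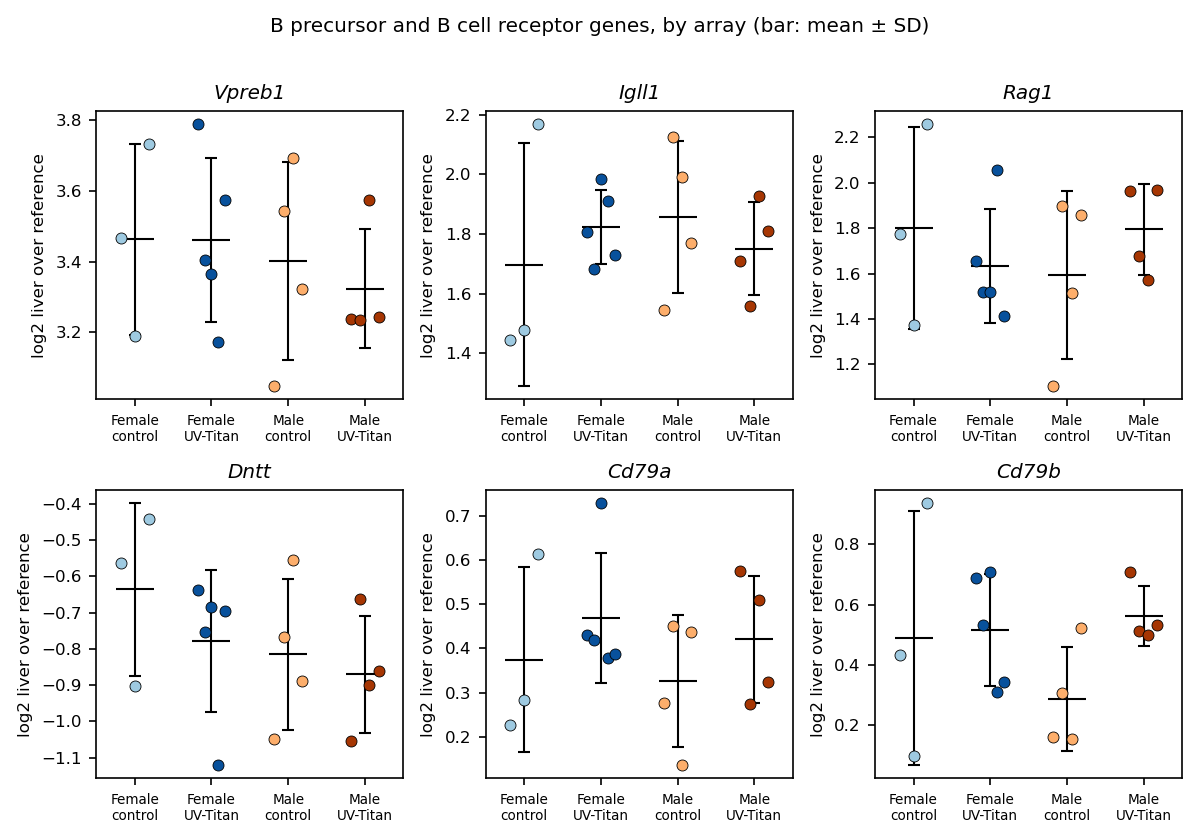
Log2 liver over reference of Vpreb1, Igll1, Rag1, Dntt, Cd79a and Cd79b (vertical axis) by group (horizontal axis); each point is 1 array and the bar with whiskers is the mean ± SD. The female UV-Titan points of Igll1 lie between the lowest and highest female controls, 1.45 and 2.17.

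In a wider list of 17 non-member genes chosen for B precursors, and not all particular to them, 16 passed the filter and 0 were called in either sex. In females 12 were higher and 4 lower, and 1 (Erg) was higher at an unadjusted p below 0.05, against 5.49% of all genes. In males 9 were higher and 7 lower, with Vpreb3, another surrogate chain gene, at 0.28 ± 0.12 and Vpreb2 at -0.21 ± 0.09, both with an adjusted p of 0.950. The medians were 0.04 in females and 0.05 in males.

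Among the mature B cell genes, the receptor chains varied together from array to array. Cd79a and Cd79b encode the 2 signalling chains of the B cell receptor. Cd79a was 0.23, 0.28 and 0.61 in female controls and 0.43, 0.42, 0.73, 0.38 and 0.39 in female UV-Titan. It was 0.28, 0.45, 0.14 and 0.44 in male controls and 0.57, 0.27, 0.51 and 0.32 in male UV-Titan, so the groups overlapped in both sexes. Cd79b was 0.43, 0.10 and 0.94 in female controls and 0.69, 0.53, 0.71, 0.31 and 0.34 in female UV-Titan. Male controls had 0.16, 0.31, 0.15 and 0.52 and male UV-Titan arrays 0.71, 0.51, 0.50 and 0.53, where only control 43 reached the exposed range. The Cd79a differences were 0.09 ± 0.11 in females and 0.10 ± 0.11 in males, and those of Cd79b 0.03 ± 0.15 and 0.28 ± 0.14 (adjusted p = 0.952 in males). On slides 1, 4 and 5 the female Cd79a difference was 1.38, 0.79 and -0.12 in red alone, against 0.15, 0.12 and 0.15 in the ratio. The median difference over the 8 B cell members was 0.04 in females and 0.19 in males, and in red alone -0.04 and 0.13. In males 7 of the 8 were higher. Male controls 31 and 33 had the lowest B cell medians of their group, -0.29 and -0.16, and these are the 2 arrays with raised pancreas markers; the part of that in the male difference was not tested. Without both arrays the median was 0.15.

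Members were paired 6 ways and set against each other over the 16 arrays on 3 scales, 18 correlations in all. Cd79a and Cd79b had a Pearson r of 0.74 (permutation p = 0.00134, adjusted p = 0.00804) and a Spearman rho of 0.67 (permutation p = 0.0063, adjusted p = 0.0283), and r was 0.68 without the 2 arrays farthest from the Cd79a median, female UV-Titan 10 and male control 41. With the group means removed r was 0.73 (permutation p = 0.00125). Vpreb1 and Igll1 had r 0.55 (permutation p = 0.0292, adjusted p = 0.0750) and rho 0.53 (permutation p = 0.0356, adjusted p = 0.118), with r 0.49 after leaving out female UV-Titan 2 and female control 40. In red alone their r was 0.79 (permutation p = 0.00051, adjusted p = 0.00804), whereas that of Cd79a and Cd79b was 0.60 (permutation p = 0.0136, adjusted p = 0.0563). The latter fell to 0.43 without female UV-Titan 2 and 10. Spearman's rho in red alone was 0.74 for Vpreb1 and Igll1 (permutation p = 0.00155, adjusted p = 0.0139). For Cd79a and Cd79b it was 0.79 (permutation p = 0.00053, adjusted p = 0.00954). Arrays of 1 slide share hybridisation conditions, and both genes of a pair share the array's depth. Of the other pairs, Cd79a and Igll1 had r 0.52 (permutation p = 0.0403, adjusted p = 0.0851) and 0.17 in red alone. Cd3d and Cd3g had r 0.47 (permutation p = 0.0672), Nkg7 and Gzma r 0.33 (permutation p = 0.209), and Cd3g with Cd79b, a T gene against a B gene, r 0.09 (permutation p = 0.736).

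**Figure D4:**
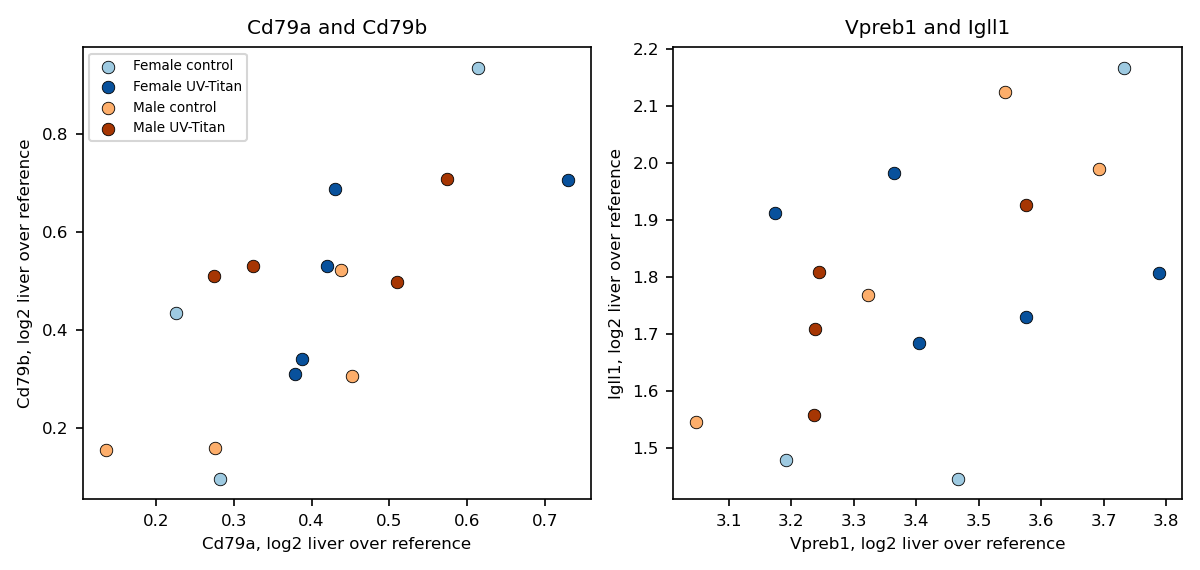
Left, Cd79b (vertical) against Cd79a (horizontal); right, Igll1 (vertical) against Vpreb1 (horizontal); all axes are log2 liver over reference, each point is 1 array and colours give the group. The points rise to the right in both panels, with r 0.74 on the left and 0.55 on the right.

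Pax5, the transcription factor that holds cells in the B lineage, is described because its values fell into 2 ranges, a feature chosen after they were seen. It was 0.84, 1.10 and 1.90 in female controls and 1.74, 1.86, 0.70, 1.69 and 0.72 in female UV-Titan. In males it was 0.76, 0.65, 1.53 and 0.95 in controls and 1.03, 1.57, 1.75 and 2.04 in UV-Titan. The 8 higher arrays lay at 1.53 to 2.04 and the 8 lower ones at 0.65 to 1.10, with a gap of 0.43 between them, and every group held arrays of both ranges. The reference signal was well above background on only 3 arrays. The difference was 0.06 ± 0.32 in females and 0.63 ± 0.31 in males (adjusted p = 0.950 in males), where 3 of 4 exposed and 1 of 4 control arrays were in the higher range. No other B lineage member shared the whole division. Of their own 8 highest arrays in the ratio, 4 to 7 were among those of Pax5, with 7 for Irf4 and 6 for Igll1. In red alone it was 4 to 6, with 4 for Irf4 and 5 for Igll1. In 10 of 18676 genes the same 8 arrays were the highest in the ratio, and in 3 of these also in red alone.
The first 30 of the 60 bases of the 2 Pax5 probes are shown because they disagree. The brighter lies at chr4:44538878-44538937 and the other between chr4:44551296-44583850 in mm7, all in lower case because no part is marked.
Pax5, brighter probe: atgtaattacagcagtgccaatttgccaaa
Pax5, other probe: ctactctgcaccgacgctgacagggatggt
The other probe never rose well above background, so the 2 ranges rest on 1 probe.

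Irf4 and Mzb1, a transcription factor and a chaperone of plasma cells and marginal zone B cells, showed the smallest p of the set in males and for the difference between the sexes. Mzb1 was -2.59, -2.48, -2.29 and -2.24 in male controls and -2.17, -2.15, -2.17 and -1.95 in male UV-Titan. The groups did not overlap, and the difference was 0.29 ± 0.09 (adjusted p = 0.950). In females it was -2.16, -2.14 and -1.88 in controls and -2.22, -2.16, -2.16, -2.07 and -2.30 in UV-Titan, which overlapped, with a difference of -0.13 ± 0.09. Irf4 was -1.81, -1.87, -1.71 and -1.72 in male controls and -1.63, -1.46, -1.40 and -1.12 in male UV-Titan, again without overlap, and differed by 0.37 ± 0.12 (adjusted p = 0.950). In female controls it was -0.99, -1.66 and -1.35 and in female UV-Titan -1.48, -1.53, -1.72, -1.53 and -1.63, a difference of -0.24 ± 0.12 (adjusted p = 0.767). In red alone the male differences were 0.16 ± 0.12 for Mzb1 and 0.16 ± 0.10 for Irf4, and the reference channel alone differed by -0.09 and -0.21. Male controls 31 and 33, the arrays with pancreas markers, were the lowest for both genes, and without them the differences were 0.16 and 0.31. Slides 1, 2 and 3 hold both male groups. On them the Mzb1 difference was 0.14, 0.42 and 0.08, and that of Irf4 0.24, 0.41 and 0.09.

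For the difference between the sexes in the exposure effect, 0 genes were called (background 0%), and 4 members had an unadjusted p below 0.05, against 4.31% of genes. Irf4 differed by -0.62 ± 0.17 (female minus male effect), Mzb1 by -0.42 ± 0.13, Nkg7 by 0.49 ± 0.16 and Cd8b1 by -0.25 ± 0.11, all with an adjusted p of 0.979. In red alone these were -0.26, -0.32, 0.25 and -0.01. Averaged over the sexes, 0 genes were called (0%), and 2 members, Lat and Cd8b1, had an unadjusted p below 0.05, against 7.07% of genes.

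For the 10 members that lay below the reference on every array, 2 arrays of slide 5 stood apart. Female control 25 was the highest array for 6 of the 10 and among the top 3 for 8, and male UV-Titan 17 was the highest for 2 and among the top 3 for 6. Their median deviation was 0.31 and 0.24 in the ratio, but 0.00 and -0.01 in red alone, while the reference channel alone stood at -0.15 and -0.17. Over all 5796 genes below the reference on every array the deviations were 0.07 and 0.06. The third array of the slide, female UV-Titan 16, stood at 0.03 in the ratio and -0.09 in the reference channel. Without arrays 25 and 17 the Irf4 difference was -0.07 in females and 0.28 in males, and that of Mzb1 -0.17 and 0.24.

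The T cell genes included none that was called. Their median difference was -0.03 over 14 genes in females, with 6 higher and 8 lower, and 0.08 in males, with 11 higher and 3 lower. Lat, the adaptor that couples the T cell receptor to its downstream signals, was the member that lay higher in both sexes without overlap. It was -1.81, -1.87 and -1.90 in female controls and -1.79, -1.59, -1.70, -1.74 and -1.79 in female UV-Titan. In males it was -2.03, -1.93, -1.97 and -1.92 in controls and -1.86, -1.78, -1.86 and -1.59 in UV-Titan. The differences were 0.14 ± 0.07 (adjusted p = 0.772) and 0.19 ± 0.07 (adjusted p = 0.950), and 0.16 ± 0.05 averaged over the sexes (adjusted p = 0.461). In red alone the differences were 0.19 and 0.13. Male control 31, the array with the highest pancreas markers, was the lowest, and without controls 31 and 33 the male difference was 0.17 ± 0.09.

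Cd8b1, the beta chain of the CD8 coreceptor, differed by 0.25 ± 0.08 in males (adjusted p = 0.950) and by -0.00 ± 0.08 in females. The array file places its brighter probe on chromosome 5, at chr5:114364254-114364313 in mm7, and its other probe on chromosome 6, at chr6:71355005-71355063, beside the probes of Cd8a. The first 30 of the 60 bases of both are shown because the 2 probes named for this gene lie on different chromosomes, all in lower case because no part is marked.
Cd8b1, chromosome 5 probe: gccatgatccagggaatgaaaagaaatttg
Cd8b1, chromosome 6 probe: ggaccctggagaagactgcaaatcctcaca
The chromosome 5 probe was -1.01, -1.10, -0.91 and -0.71 in male controls and -0.71, -0.66, -0.64 and -0.73 in male UV-Titan, so control 43 reached into the exposed range. The lowest values were those of controls 31 and 33, the arrays with pancreas markers, and without them the male difference was 0.13 ± 0.09. The chromosome 6 probe was well above background on 11 arrays, 1 of them a male control, and gave differences of 0.24 ± 0.07 in males (adjusted p = 0.950) and -0.11 ± 0.07 in females. Red alone gave 0.12 in males for the brighter probe and the reference channel -0.12.

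The Cd3 genes, which build the receptor complex of T cells, differed in sign among themselves in both sexes. Cd3d was 0.56, 0.15 and 0.17 in female controls and -0.06, 0.35, -0.12, 0.18 and 0.33 in female UV-Titan, a difference of -0.15 ± 0.11 that was -0.37 ± 0.12 in red alone. Male values were 0.23, 0.15, 0.11 and 0.15 in controls and 0.26, 0.09, 0.25 and 0.32 in UV-Titan. Cd3g was -0.96, -1.65 and -1.16 in female controls and -1.64, -1.37, -1.40, -1.41 and -0.98 in female UV-Titan, which overlapped fully. It was -1.39, -1.78, -1.34 and -1.50 in male controls and -1.54, -1.40, -1.77 and -1.43 in male UV-Titan. Cd3e differed by 0.27 ± 0.15 in females and 0.13 ± 0.14 in males. Cd27 and Cd247 were well above background in liver on 15 and 8 of the 16 arrays.

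Ptprcap, a partner of the CD45 phosphatase found across lymphocytes, was 0.32, 0.31, 0.29 and 0.42 in male controls and 0.49, 0.49, 0.53 and 0.49 in male UV-Titan, which did not overlap. The difference was 0.16 ± 0.09 (adjusted p = 0.952), and 0.04 ± 0.13 in red alone. In females it was 0.44, 0.14 and 0.64 in controls and 0.52, 0.58, 0.57, 0.35 and 0.41 in UV-Titan. Il7r, the receptor for the cytokine that early B and T cells need, spanned 1.10 to 2.26 over the 16 arrays. Its reference signal was never well above background, so these ratios are lower limits. In the ratio and in red alone it was highest on female control 40 (ratio 2.26) and lowest on male control 31 (1.10), the arrays that were also highest and lowest for the B cell median.

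Of 23 further T cell genes, 19 passed the filter and 0 were called. In females 10 were higher and 9 lower, with Tcf7, a T cell and progenitor factor, at 1.15 ± 0.50 (adjusted p = 0.704). In males 14 were higher and 5 lower, with a median of 0.07.

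Among the NK and cytotoxic genes all 7 had positive differences in females, with a median of 0.08, and 5 in males, with a median of 0.04; in red alone 5 and 4 were positive. The female median was 0.01 in red alone and -0.08 without female controls 35 and 25. Nkg7 had the largest female difference of the 7. It was 2.40, 2.65 and 2.60 in female controls and 3.00, 3.17, 3.10, 2.68 and 2.85 in female UV-Titan, so every exposed array lay above every control. The difference was 0.41 ± 0.12 (adjusted p = 0.585). In male controls it was 3.07, 2.70, 2.84 and 2.93 and in male UV-Titan 2.98, 2.87, 2.80 and 2.58, a difference of -0.08 ± 0.11. Within the 3 slides that hold both female groups the Nkg7 difference was 0.35, 0.50 and 0.28 in the ratio, and 0.33, 0.34 and -0.30 in red alone, so on the last of these, slide 5, the sign turned. Its other probe gave 0.26 in females and 0.03 in males, so it differed in sign from the brighter probe in males. In red alone the female difference was 0.21 ± 0.16.

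Gzma was 2.71, 2.62 and 3.25 in female controls and 2.77, 3.11, 3.05, 2.96 and 3.71 in female UV-Titan, a difference of 0.26 ± 0.20. In males it was 3.07, 2.58, 3.09 and 3.30 in controls and 3.18, 2.97, 2.57 and 2.92 in UV-Titan. Both pairs of groups overlapped. Prf1, the pore-forming perforin, was well above background on 9 arrays and Ncr1, the NKp46 receptor of NK cells, on 3. Of 19 further NK and cytotoxic genes 12 passed the filter and 0 were called, with 9 higher in females and 10 in males. Hcst, the DAP10 adaptor of activating NK receptors, was 0.38 ± 0.09 in females (adjusted p = 0.420), without overlap of the groups.

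Markers of other cells also differed in sign and size between the groups, and none passed the threshold in either sex. In females 18 of 18 granulocyte markers and 12 of 12 megakaryocyte and platelet markers were higher in UV-Titan, with medians of 0.47 and 0.53, and 12 of the 12 platelet markers were higher at an unadjusted p below 0.05, against 5.49% of all genes. The lowest adjusted p among both lists was 0.082. The pan-leukocyte markers, 11 of 11 higher, had a median of 0.15, and the hepatocyte markers, 18 of 18 higher, one of 0.51 in the ratio and 0.06 in red alone. The female medians of the members, from -0.07 for B precursors to 0.08 for NK genes, were smaller than these. In males 12 of 12 platelet markers were higher (median 0.16), as were 10 of 11 pan-leukocyte (0.11) and 12 of 18 granulocyte markers (0.09), and 14 of 18 hepatocyte markers were lower (-0.20). The male member medians ran from -0.07 for B precursors to 0.19 for B cell genes. No test was made of the part these cells have in any member's value.

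**Figure D5:**
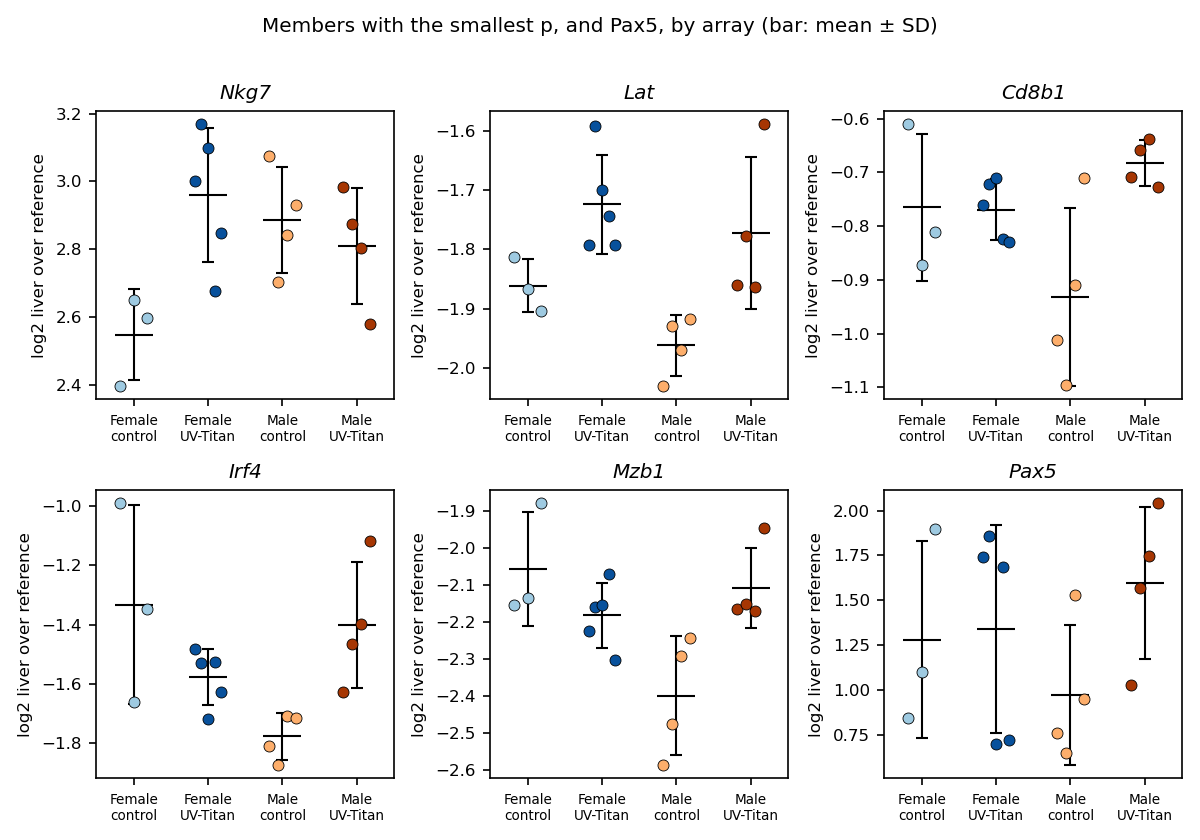
Log2 liver over reference of Nkg7, Lat, Cd8b1, Irf4, Mzb1 and Pax5 (vertical axis, a different range in each panel) by group (horizontal axis); each point is 1 array and the bar with whiskers is the mean ± SD. Nkg7 separates the female groups, Lat both sexes, and Irf4 and Mzb1 the male groups, while Pax5 takes a high or a low value within every group.

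No lymphocyte gene was called between the sexes. Across both exposures 9 genes were called between the sexes (0.0481% of those tested), none of them a member. At an unadjusted p below 0.05, 2 members were lower in males and 0 higher, against 4.3% of genes in either direction. Cd5, an inhibitory coreceptor of T and B1 cells, differed by -0.23 ± 0.09 (male minus female, adjusted p = 0.977) and Mzb1 by -0.13 ± 0.06. The third by p, Cd3g, differed by -0.21 ± 0.11 and is not among the 2. Cd5 was -1.67, -2.15 and -2.15 in female controls and -2.16, -2.05, -2.14, -2.11 and -2.21 in female UV-Titan. It was -2.34, -2.50, -2.20 and -2.29 in male controls and -2.44, -2.26, -2.46 and -1.87 in male UV-Titan, so the high arrays of either sex were the slide 5 arrays named above. In red alone the Cd5 difference was -0.11.

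T and NK genes and B lineage genes were also compared as groups. The 21 tested T and NK members had a median difference of 0.06 in females and 0.07 in males, and the 12 B lineage members of 0.01 and 0.08. In red alone these were 0.00 and 0.01 for T and NK genes and -0.08 and 0.09 for B lineage genes. By array, the B cell median ran from -0.29 (male control 31) to 0.37 (female control 40), the NK median from -0.28 (male control 33) to 0.22 (female UV-Titan 8), and the T cell median only from -0.13 (male control 33) to 0.10 (female UV-Titan 8). Of 23 further B cell genes 21 passed the filter and 0 were called. In females 14 were higher, led by Btk, a kinase of B cell receptor signalling, at 0.37 ± 0.11, and in males 20 of 21, led by Fcrla, an Fc receptor-like protein of B cells, at 0.44 ± 0.17 and Pou2af1, a B cell coactivator, at 0.40 ± 0.15 (adjusted p = 0.950 for both). The medians were 0.15 in females and 0.16 in males.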

How the data were processed

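Two-colour Agilent arrays of 16 offspring livers were analysed from the authors' deposited scanner files, 1 per animal. The deposited intensity values are mean red and green signals with local background, scanned with Agilent Feature Extraction 9.5.3.1 per the labels' protocols; the processed intensity values were background-subtracted and dye-normalised, per the file headers. The authors' deposited log2 ratio table has no stated normalisation; set against uncorrected loess ratios it gave r 0.992 to 0.994 and slope 0.982 to 0.987, so its direction is red over green, and its column medians were -0.04. The label fields give Cy3 and the labelling protocol Cy5 for liver; hepatocyte markers were brighter in red on all arrays and Ddx3y in red separated the sexes, so red was read as liver. The common reference is universal mouse RNA.

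Signals were corrected with normexp (offset 50), loess-normalised within arrays in limma 3.58.1 (R 4.3.3) and averaged over spots of a probe. Offset 50 pulls ratios of dim probes towards 0. Red alone was quantile-normalised. The brightest probe represented a gene, and the gene was kept if that probe was well above background on at least 3 arrays. In all 18705 genes were chosen, of which 1 lacked any value in a group and was not tested. One fit over the 4 groups was tested with lmFit and eBayes, adjusting p over all genes. The step was tested on simulated data. Per-array values were named for the 4 precursor genes, the pair genes and the 3 members of smallest p in each of 5 contrasts; Pax5, Cd3e, Ptprcap, Il7r and genes outside the members were added by the rules of their lists or after their values were seen. Pairs were tested with 100000 permutations, 2-sided. Members and lists were chosen with earlier results of these data known.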

Additional observations from a re-analysis of the deposited data

Results flagged for a closer look

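In groups of 4 or 5 arrays, 7 of 102 had 1 array that stood far from the other arrays of its group by Dixon's test, which flags about 1 in 20 groups by chance. These were Zap70 on male UV-Titan 17 at -1.29 (the nearest other array at -1.52), Mzb1 on the same array at -1.95 (nearest -2.15), Cd79b on male UV-Titan 3 at 0.71 (nearest 0.53) and Vpreb1 on male UV-Titan 5, the array with raised skeletal muscle markers, at 3.58 (nearest 3.24). In female UV-Titan they were Cd79a on array 10 at 0.73 (nearest 0.43), Blk on array 2 at 0.31, below the nearest at 0.40, and Dntt on array 16 at -1.12, below the nearest at -0.75. Values are log2 liver over reference. Groups of 3 female controls were too few for this test.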

How the results depend on the processing

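No paired analysis was possible because no replicate number is shared between the groups. Slides were used as a block instead, and they hold animals of both exposures, though not always of both within a sex. In 31 alternative settings no member was called in any of the 5 comparisons that the setting could give. The number of genes called over both sexes was 9 with array weights, 10 with scan day and 1 with slide as a block, 1 with no background correction, and 0 to 11 on leaving out single arrays (11 without male control 43, 3 without female control 35). In females it was 7 with array weights, 1 with either block and 0 to 1 on leaving out single arrays. In males it was 1 with Agilent's processed signals. Between the sexes it was 0 in green alone.

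Leaving out female controls 35 and 25 left control 40 as the only female control, the highest array for the B cell and B precursor medians. The median of B cell members was -0.16 in females with array weights and -0.34 without female controls 35 and 25. It was -0.064 to 0.23 on leaving out single arrays (0.23 without female control 40). In males it was 0.29 with processed signals and -0.013 in green alone. B precursors were -0.34 in females without controls 35 and 25. NK genes were 0.22 in females and 0.18 in males with processed signals, and -0.084 in females without controls 35 and 25. T cell genes were -0.093 (without control 35) to 0.042 (without control 25) in females on leaving out single arrays. In males they were 0.16 with processed signals, -0.028 in green alone, 0.024 in red alone, 0.036 in the deposited ratios, 0.041 with slide as a block and 0.072 to 0.15 on leaving out single arrays. The causes were not tested. Among the values of single genes, 88 changed sign without a call and 916 values of genes and pairs kept their side. By Pearson's r, 1 pair passed the threshold in red alone and 1 no longer did. Alternatives chosen after seeing the data were the chromosome 6 probe of Cd8b1 and the fit without arrays 17 and 25. Few arrays and low signals of Cd247, Prf1 and Ncr1 limit precision.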
